A study of Homo sapiens with 6 samples.

Results

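The DNA replication machinery was examined here as 53 genes in human pluripotent stem cells (hPSCs) that were grown in simulated microgravity (sµg) or in normal gravity (1g). The genes were taken by name, and all 53 were found among the 60719 genes of the deposited tables. They encode the origin recognition complex, the licensing factors, the MCM helicase with its partners CDC45 and GINS, the replicative polymerases, the clamp and its loader, the proteins that finish and coat the new strands, the enzymes of nucleotide supply and 3 E2F transcription factors. The 1g group held 3 samples from cells kept standing in chamber slides, and the sµg group held 3 samples from cells in the same kind of slide on a 2-D clinostat, which rotates a culture so that its orientation to gravity keeps changing. Both groups were cultured for 96 h, in StemFlex medium on Matrigel. Per the study's methods, the sµg slides were filled up with medium before rotation, and the clinostat stood in an incubator of its own. Whether the 1g slides were filled up in the same way is not stated. Every sample is labelled with both H1 and H9, which are human embryonic stem cell lines, and the line behind a given sample is therefore unknown here. The study's methods speak of repeated experiments and of matched controls, but neither they nor the labels say that the 3 sequenced samples of a group were separate cultures or which samples were matched, and a p-value then covers the spread among them, be it technical or not.

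A eukaryotic cell copies its genome once per cycle. In G1 phase the origin recognition complex (ORC), CDC6 and CDT1 load the MCM2-7 ring onto DNA, a step called licensing, and in S phase CDC45 and GINS join the ring to form the CMG helicase that unwinds the fork. Polymerase alpha with its primase then starts each new strand, polymerases epsilon and delta extend it on the leading and the lagging strand, and PCNA, a sliding clamp, holds them to the template. Most of these genes are transcribed in bursts around the start of S phase under control of E2F factors. Pluripotent stem cells have a short G1 phase and keep replication genes at a high level.

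RNA was measured by sequencing of poly(A) RNA. The deposited value of a gene is the expected count, an estimate of its reads in which reads that match several genes are shared out, and its library total ran from 20876937 to 28506848 in 1g and from 19971097 to 20588215 in sµg. Levels are given below as CPM (the count scaled to a constant library size, after TMM scaling between libraries) when libraries are compared, and as TPM (a scaled level that is also divided by length) when genes are compared. A triplet of values always follows the order of replicates 1, 2 and 3. Changes are log2 fold changes of sµg over 1g from edgeR's quasi-likelihood test over 16763 genes, with their standard error (SE), and a gene is said to have risen or fallen when its Benjamini-Hochberg adjusted p was under 0.05. Counts of the 53 genes ran from 138 for E2F2 to 16868 for MCM7 in single libraries, and the SE of their changes from 0.0342 to 0.116.

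All 8 pluripotency markers were expressed in both conditions, and POU5F1 stood between 1880 and 2150 CPM in every library. Their summed level was 5831 to 5879 TPM in 1g and 5510 to 5553 TPM in sµg, and LIN28A and DNMT3B fell. All 6 tested markers of trophectoderm and amnion, of 7 listed, fell, and their summed level was 41.13 to 45.25 TPM in 1g and 17.24 to 21.89 TPM in sµg. Of 6 fibroblast markers 3 could be tested and fell, with a summed level of 127.9 to 132.3 TPM in 1g and 51.65 to 64.63 TPM in sµg, and of 5 tested neural markers 2 rose and 3 fell, at 201.1 to 205.1 TPM in 1g and 196.2 to 218.7 TPM in sµg. The 6 markers of mesoderm and endoderm summed to at most 2.59 TPM in any library, 1 of the 4 tested fell, and no listed marker was at 0 in all 6 libraries. The part of these cells in the results below was not tested. In bulk RNA, fewer cells in a phase or of a type and less RNA per cell cannot be told apart.

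The 250 bases before the start site are shown for 4 of the genes, because they carry the promoter element by which E2F factors are known to reach replication genes. MCM6 rose in sµg, POLE and CDT1 fell and PCNA did not pass the test. The sequences are those of RefSeq on GRCh38.p14, read 5′ to 3′ in the direction of transcription, at chr2:135876444-135876693 on the minus strand for MCM6, chr12:132687343-132687592 on the minus strand for POLE, chr16:88803539-88803788 on the plus strand for CDT1 and chr20:5126623-5126872 on the minus strand for PCNA. Capitals mark every match to TTTCCCGC or TTTGGCGC on either strand.
MCM6: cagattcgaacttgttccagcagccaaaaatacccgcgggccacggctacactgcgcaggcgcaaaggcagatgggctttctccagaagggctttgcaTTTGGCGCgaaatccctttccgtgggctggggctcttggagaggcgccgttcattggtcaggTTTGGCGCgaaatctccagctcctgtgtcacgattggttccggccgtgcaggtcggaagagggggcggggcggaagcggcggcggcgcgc
POLE: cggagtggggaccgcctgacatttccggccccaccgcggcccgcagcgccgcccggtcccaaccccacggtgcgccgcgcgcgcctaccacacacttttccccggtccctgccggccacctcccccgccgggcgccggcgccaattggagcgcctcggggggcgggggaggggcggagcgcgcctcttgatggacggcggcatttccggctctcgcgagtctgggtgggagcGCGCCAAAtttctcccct
CDT1: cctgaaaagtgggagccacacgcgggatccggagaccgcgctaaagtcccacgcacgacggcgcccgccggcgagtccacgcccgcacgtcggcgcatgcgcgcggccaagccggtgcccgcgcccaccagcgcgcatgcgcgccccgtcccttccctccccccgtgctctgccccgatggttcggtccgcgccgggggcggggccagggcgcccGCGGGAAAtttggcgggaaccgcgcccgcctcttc
PCNA: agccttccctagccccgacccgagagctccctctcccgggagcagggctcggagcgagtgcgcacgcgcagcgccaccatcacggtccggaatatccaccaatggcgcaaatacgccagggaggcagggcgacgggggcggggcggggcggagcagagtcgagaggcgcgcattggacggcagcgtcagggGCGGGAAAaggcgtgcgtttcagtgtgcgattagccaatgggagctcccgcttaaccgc
The MCM6 promoter holds TTTGGCGC at 2 places on the sense strand, and the other promoters hold 1 match each, all on the opposite strand. RefSeq promoters of 300 bases (250 before the start site and 50 from it on) were at hand for 46 of the 53 genes, and 22 of these, or 47.8%, held either motif. Over all 27305 genes with a promoter the share was 2.75%. A gene was counted once, also where matches on opposite strands overlapped, as in TIPIN. The genes without an entry were MCM4, MCM5, GINS4, POLD3, RPA2, RPA3 and E2F8.

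Of the 53 genes, 20 rose in sµg and 3 fell, and 30 did not pass the test. Over all 16763 genes tested, 15.5% rose and 18.2% fell, while of the 53 replication genes 37.7% rose and 5.66% fell. These shares are a description, because the 53 genes were chosen with earlier results of these data known. The median change was 0.07 on the log2 scale, or 1.05-fold, beside 0.01 over all genes. The changes were small. A size under 0.2 on the log2 scale was found for 44 of the 53 genes, and a size over 0.3 for 5 of them, E2F8, POLA2, ORC5, POLE2 and E2F2. In 28 genes every sµg library lay above every 1g library, and in 5 every one lay below, against 21.8% and 23.7% of all genes. The summed level of the 53 genes was 4216, 4196 and 4281 TPM in 1g and 4549, 4503 and 4449 TPM in sµg, a ratio of means of 1.06. The summed CPM was 6613, 6627 and 6690 in 1g and 6859, 6871 and 6892 in sµg. The promoter motif shown above was found in 7 of 17 genes that rose, in 2 of 3 that fell and in 13 of 26 that did not pass the test, so promoters with and without it occurred in each class.

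**Figure D1:**
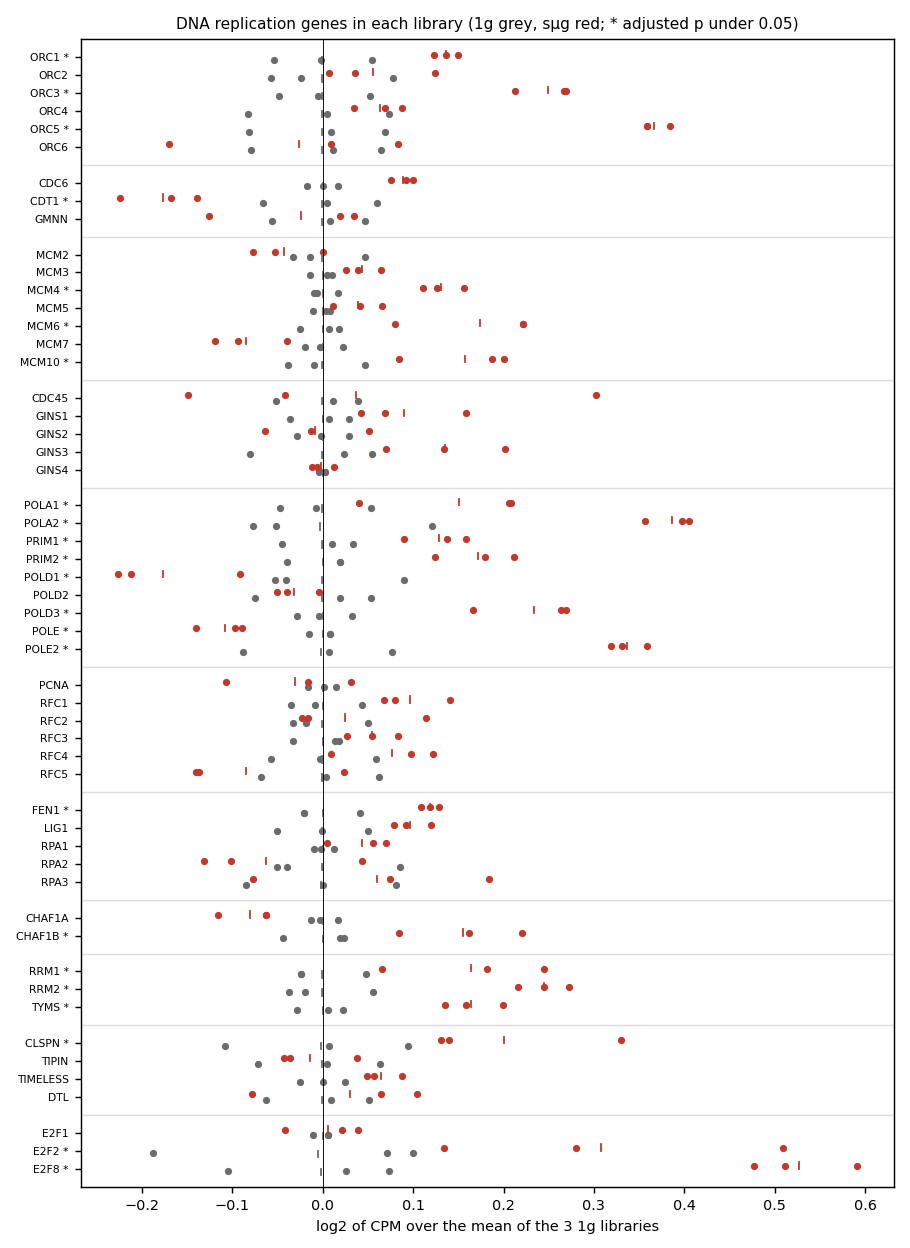
Level of each of the 53 genes in each of the 6 libraries, as the log2 of its CPM over the mean of the 3 1g libraries (grey points 1g, red points sµg, short bars the mean of the 3 points), grouped by role. The 23 genes with an adjusted p under 0.05 carry an asterisk, and the red points of E2F8 and 1 red point of E2F2 lie furthest to the right.

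Among the 6 subunits of the ORC, which marks origins, 3 rose. ORC5, at chr7:104126341-104208047 on the minus strand (GENCODE 44, GRCh38), had 27.4, 24.7 and 26.3 CPM in 1g and 33.5, 34.1 and 33.5 CPM in sµg, a log2 fold change of 0.36 (SE 0.0559, adjusted p = 5.9e-05). Its sµg values were nearly equal to each other and stood clear of the 1g values. ORC3 had 66.7, 68.7 and 71.5 CPM in 1g and 83.1, 83.0 and 79.9 CPM in sµg, a change of 0.25 (SE 0.0426, adjusted p = 0.000162). ORC1, the subunit that is made and destroyed with the cycle, had 95.5, 99.0 and 103 CPM in 1g and 109, 110 and 108 CPM in sµg, a change of 0.13 (SE 0.0401, adjusted p = 0.0145). The ORC1 groups did not overlap, but the gap between them was smaller than in ORC3 and ORC5. ORC6, the end of the group with the lowest change, had 59.0, 61.2 and 55.4 CPM in 1g and 58.9, 52.0 and 62.0 CPM in sµg, and its groups overlapped fully (-0.02, adjusted p = 0.814). ORC2 (0.06, adjusted p = 0.387) and ORC4 (0.07, adjusted p = 0.323) did not pass the test either. Per length, ORC6 was the most abundant at a mean of 55.0 TPM over the 6 libraries, but its range overlapped that of ORC4 and the ranges of ORC4, ORC3 and ORC1 overlapped in turn. ORC2 (26.2 TPM) and ORC5 (23.4 TPM) lay apart below them and overlapped with each other, so the subunit with the largest rise was among the least abundant.

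CDT1, which brings the MCM ring to the origin, fell. It had 80.1, 77.1 and 73.4 CPM in 1g and 68.4, 69.8 and 65.8 CPM in sµg, a log2 fold change of -0.18 (SE 0.045, adjusted p = 0.005). Every sµg library was below every 1g library. The call was lost with a GC content offset (-0.03, adjusted p = 0.677) and with an effective length offset (-0.16, adjusted p = 0.122). It was also lost in limma on TPM. CDC6, the ATPase that works with CDT1, had 166, 170 and 168 CPM in 1g and 180, 177 and 179 CPM in sµg. Its groups did not overlap, but the change of 0.09 missed the threshold (SE 0.0345, adjusted p = 0.0602). GMNN encodes geminin, the protein that holds CDT1 in check, and its change was -0.02 (adjusted p = 0.77). Without an offset, edgeR therefore gave 1 fall among the 3 genes and 2 changes on either side of 0 that did not pass.

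Of the MCM genes, MCM4, MCM6 and MCM10 rose. MCM4 had 442, 435 and 434 CPM in 1g and 477, 487 and 472 CPM in sµg, a log2 fold change of 0.13 (SE 0.0344, adjusted p = 0.00667). MCM6 had 263, 269 and 271 CPM in 1g and 312, 312 and 283 CPM in sµg, a change of 0.17 (SE 0.0406, adjusted p = 0.00263). In MCM6 sµg replicate 3 stood nearer to the 1g libraries than to the other sµg libraries. MCM10, which joins the helicase when it is activated, had 64.6, 68.5 and 65.9 CPM in 1g and 70.3, 75.5 and 76.2 CPM in sµg, a change of 0.16 (SE 0.0451, adjusted p = 0.0105). At the other end was MCM7, with 598, 605 and 616 CPM in 1g and 558, 568 and 590 CPM in sµg, which lay lower in every sµg library without passing the test (-0.08, adjusted p = 0.0789). MCM2 (-0.04, adjusted p = 0.385), MCM3 (0.04, adjusted p = 0.368) and MCM5 (0.04, adjusted p = 0.421) did not pass it either.

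The 6 ring subunits work in equal numbers in the protein complex, but their transcripts were at unequal levels. MCM7 was the most abundant at a mean of 361 TPM over the 6 libraries, apart from MCM4 at 276 TPM, MCM5 at 267 TPM and MCM3 at 255 TPM, whose ranges overlapped. MCM2 followed at 130 TPM and MCM6 at 106 TPM, each apart from its neighbour. In TPM the difference in MCM4 was larger than in CPM. MCM4 had 254, 247 and 246 TPM in 1g and 293, 314 and 303 TPM in sµg, and the effective length that the tables give for it was 2258, 2290 and 2272 bases in 1g and 2198, 2080 and 1993 bases in sµg. With each library's effective length as an offset in edgeR the log2 fold change of MCM4 was 0.25.

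**Figure D2:**
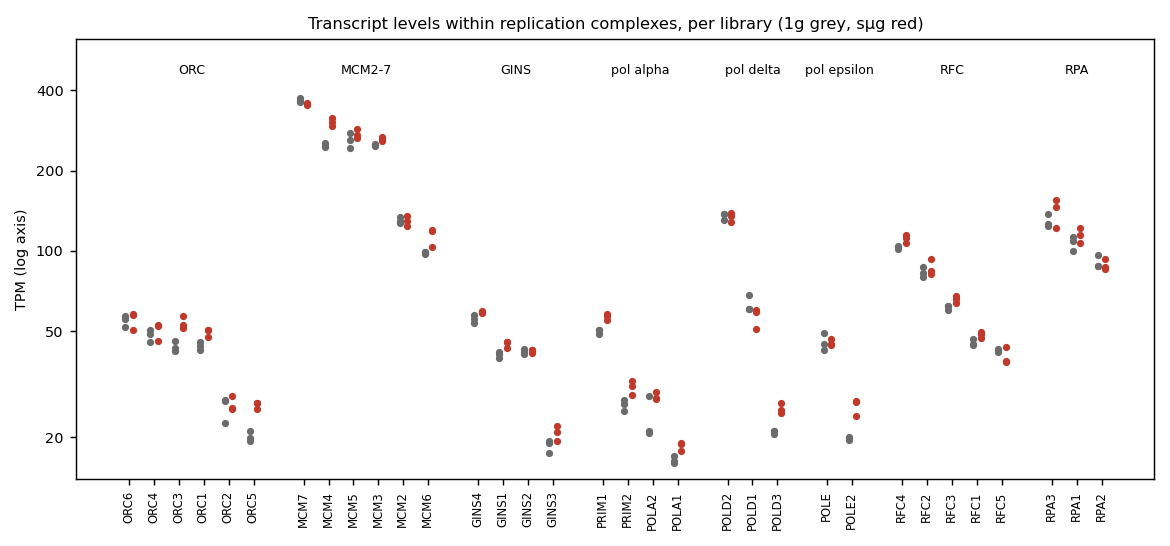
Transcript level of each subunit in TPM on a log axis, 1 point per library (1g grey, sµg red), for 8 complexes with subunits ordered by their mean. MCM7 stands at 353 to 374 TPM and MCM6 at 97.0 to 120 TPM within the same ring, and POLE2 and ORC5 lie low in their complexes with the red points above the grey ones.

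CDC45 and the 4 GINS genes complete the CMG helicase, and none of these 5 passed the test with edgeR. At an unadjusted p under 0.05 there were 2, both higher in sµg (GINS1 and GINS3), and DESeq2 called none. GINS3, with the largest change, had 25.5, 28.0 and 27.4 CPM in 1g and 31.0, 29.6 and 28.3 CPM in sµg (0.14, SE 0.0597, adjusted p = 0.0787). GINS2 had 77.7, 76.3 and 79.4 CPM in 1g and 74.4, 77.1 and 80.6 CPM in sµg (-0.01, adjusted p = 0.901), and the groups lay over each other. GINS1 (0.09, adjusted p = 0.114) and GINS4, whose log2 fold change was 0 to 2 decimals (adjusted p = 0.981), did not pass. CDC45 (0.05, adjusted p = 0.749) was the most variable of the 5, with 37.2 CPM in sµg replicate 3 and 27.2 to 31.0 CPM in the other 5 libraries. Per length GINS4 was highest at 57.1 TPM, apart from GINS1 (42.8 TPM) and GINS2 (42.1 TPM), which overlapped, and GINS3 was lowest at 19.7 TPM.

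The polymerase genes showed both directions. All 4 genes of polymerase alpha and primase, which lay down the primers, rose with edgeR, but DESeq2 and a GC content offset each left POLA2 as the single call, and an effective length offset left none. POLA2, the regulatory subunit, had 32.7, 28.5 and 29.0 CPM in 1g and 38.5, 39.6 and 39.8 CPM in sµg, a log2 fold change of 0.38 (SE 0.0582, adjusted p = 5.56e-05). PRIM2, the large primase subunit, had 38.4, 40.0 and 40.0 CPM in 1g and 45.7, 43.0 and 44.7 CPM in sµg, a change of 0.17 (SE 0.0488, adjusted p = 0.0102). PRIM1, the catalytic primase subunit, had 48.0, 49.9 and 50.7 CPM in 1g and 54.5, 52.7 and 55.3 CPM in sµg, a change of 0.13 (SE 0.0461, adjusted p = 0.0369). In these genes the groups did not overlap, and the gap was widest in POLA2. POLA1, the catalytic subunit on the X chromosome, rose by the test (0.15, SE 0.0508, adjusted p = 0.0246), but its groups overlapped, with 57.9, 59.5 and 62.1 CPM in 1g and 69.1, 69 and 61.5 CPM in sµg. PRIM1 overlaps NACA on the same strand, a gene with a mean count of 18619 beside 1144 for PRIM1, and how reads were divided between them cannot be checked from the tables. In TPM the POLA2 groups overlapped, with 28.5, 20.7 and 21.1 TPM in 1g and 27.8, 29.6 and 28.0 TPM in sµg, and its effective length was 1489 bases in 1g replicate 1 beside 1770 to 1872 bases in the other libraries.

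In polymerases delta and epsilon edgeR called the catalytic subunit lower and an accessory subunit higher, and the lower calls were lost under other settings given at the end of the paragraph. POLD1, the catalytic subunit of polymerase delta, had 127, 115 and 116 CPM in 1g and 103, 102 and 112 CPM in sµg, a log2 fold change of -0.18 (SE 0.0472, adjusted p = 0.00761). POLD3, an accessory subunit, had 48.2, 47.0 and 46.2 CPM in 1g and 56.6, 52.9 and 56.8 CPM in sµg, a change of 0.23 (SE 0.0472, adjusted p = 0.000839). POLD2, the subunit between them in the complex, had a change of -0.03 (adjusted p = 0.578). POLE, the catalytic subunit of polymerase epsilon, had 185, 182 and 185 CPM in 1g and 172, 173 and 167 CPM in sµg, a change of -0.11 (SE 0.0353, adjusted p = 0.0263). POLE2, its accessory subunit at chr14:49643555-49688422 on the minus strand, had 21.3, 19.0 and 20.3 CPM in 1g and 25.9, 25.4 and 25.2 CPM in sµg, a change of 0.33 (SE 0.0626, adjusted p = 0.000433). The groups of these 4 genes did not overlap. The ratio of POLE2 to POLE in TPM was 0.399, 0.447 and 0.47 in 1g and 0.582, 0.614 and 0.537 in sµg, and that of POLD3 to POLD1 was 0.31, 0.35 and 0.339 in 1g and 0.456, 0.485 and 0.423 in sµg. The pairs were chosen because their members were called in opposite directions, so the ratios are a description. The fall of POLD1 and that of POLE both ended as calls with a GC content offset, with an effective length offset and in limma on TPM, while the rises of POLD3 and POLE2 were called in each of these. In TPM POLE had a mean of 45.4 ± 3.43 in 1g and 45.3 ± 1.28 in sµg (SD, n = 3).

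The sliding clamp PCNA and the 5 subunits of RFC, which opens the clamp and loads it onto DNA, gave no call by edgeR or DESeq2. At an unadjusted p under 0.05 there was 1, RFC1. PCNA had a change of -0.03 (adjusted p = 0.595) at 401 TPM in both conditions (SD 2.66 in 1g and 14.9 in sµg, n = 3), the highest level of the 53 genes. RFC1 had 108, 114 and 110 CPM in 1g and 117, 122 and 116 CPM in sµg (0.1, SE 0.0393, adjusted p = 0.0669), and RFC5 had 55.9, 53.2 and 58.2 CPM in 1g and 50.6, 50.7 and 56.7 CPM in sµg (-0.08, adjusted p = 0.244). The RFC1 groups did not overlap and the RFC5 groups did. RFC2 (0.02, adjusted p = 0.721), RFC3 (0.05, adjusted p = 0.35) and RFC4 (0.08, adjusted p = 0.2) lay between them. Per length the subunits were ordered RFC4 (107 TPM), RFC2 (84.7 TPM), RFC3 (63.7 TPM), RFC1 (46.9 TPM) and RFC5 (41.3 TPM), each apart from the next.

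Of the genes for flap removal, ligation and single-strand binding, FEN1 rose. FEN1, the nuclease that trims Okazaki fragments, had 138, 138 and 144 CPM in 1g and 151, 152 and 153 CPM in sµg, a log2 fold change of 0.11 (SE 0.0364, adjusted p = 0.0202). It is overlapped on the same strand by FADS2, with a mean count of 13797 beside 3227 for FEN1. LIG1, which seals the nicks that FEN1 leaves, had a change of 0.09 (adjusted p = 0.0787). The RPA trimer coats single-stranded DNA, and RPA1 (0.04, adjusted p = 0.388), RPA2 (-0.06, adjusted p = 0.386) and RPA3 (0.06, adjusted p = 0.457) did not pass the test. RPA2, the lowest of the group, had 92.6, 91.9 and 101 CPM in 1g and 86.9, 88.7 and 98.1 CPM in sµg, with overlapping groups.

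The CAF-1 genes, whose proteins place histones on the new DNA, lay on either side of 0. CHAF1B had 32.8, 31.3 and 32.7 CPM in 1g and 37.6, 36.1 and 34.2 CPM in sµg and rose by 0.16 on the log2 scale (SE 0.0539, adjusted p = 0.0331). CHAF1A had 146, 147 and 149 CPM in 1g and 141, 141 and 136 CPM in sµg (-0.08, SE 0.0361, adjusted p = 0.0892). The groups did not overlap in either gene, in opposite directions, and the CHAF1A value did not pass the test. CHAF1B is overlapped on the same strand by MORC3, with a mean count of 626 beside 754.

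All 3 enzymes of nucleotide supply rose. RRM1 and RRM2 are the large and the small subunit of ribonucleotide reductase, which makes deoxyribonucleotides, and TYMS is thymidylate synthase. RRM2 had 167, 178 and 169 CPM in 1g and 207, 203 and 199 CPM in sµg, a log2 fold change of 0.24 (SE 0.0373, adjusted p = 6.1e-05). RRM1 had 156, 164 and 156 CPM in 1g and 188, 180 and 166 CPM in sµg, a change of 0.17 (SE 0.0436, adjusted p = 0.00589). TYMS had 78.9, 76.2 and 78.0 CPM in 1g and 85.3, 86.7 and 89.2 CPM in sµg, a change of 0.16 (SE 0.0401, adjusted p = 0.00393). The groups did not overlap in any of them, and in RRM1 sµg replicate 3 was close to the highest 1g library. The summed level of the 3 genes was 286.7, 298.1 and 290.0 TPM in 1g and 356.8, 339.5 and 333.4 TPM in sµg, a ratio of means of 1.18, the highest among the 11 role groups. TYMS is overlapped on the opposite strand by ENOSF1.

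CLSPN encodes claspin, which passes the checkpoint signal from a stalled fork to CHEK1, and it rose. Its CPM was 41.1, 47.3 and 44.5 in 1g and 48.5, 48.8 and 55.7 in sµg, a log2 fold change of 0.21 (SE 0.0626, adjusted p = 0.0168). The groups were separated by a narrow gap, and sµg replicate 3 was the highest. TIMELESS (0.07, adjusted p = 0.158) and TIPIN, with 20.4, 21.5 and 22.4 CPM in 1g and 20.8, 22 and 20.9 CPM in sµg (-0.01, adjusted p = 0.909), form the fork protection complex and did not pass the test. DTL, the ubiquitin ligase adaptor that removes CDT1 in S phase, had a change of 0.03 (adjusted p = 0.667).

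The largest change of the 53 genes was that of E2F8, at chr11:19224063-19241620 on the minus strand (GENCODE 44, GRCh38). E2F8, a repressor that acts late in S phase on E2F target genes, had 13.7, 15 and 15.5 CPM in 1g and 22.2, 21.0 and 20.5 CPM in sµg, a log2 fold change of 0.53 or 1.44-fold (SE 0.0716, adjusted p = 1.45e-05). Its lowest sµg library was well above its highest 1g library. E2F2, an activator, had 7.27, 7.42 and 6.08 CPM in 1g and 9.85, 7.6 and 8.41 CPM in sµg, a change of 0.32 (SE 0.116, adjusted p = 0.0436). It was the least abundant of the 53 genes at 1.94 TPM in 1g, and sµg replicate 2 lay just above the 1g libraries. E2F1 was the other activator among the 53 genes. It had 46.4, 45.9 and 46.4 CPM in 1g and 44.9, 46.9 and 47.5 CPM in sµg (0.01, adjusted p = 0.932). The E2F1 groups overlapped. In the main test E2F2 was called and E2F1 was not, and the difference between them was not tested. DESeq2, the effective length offset and limma on TPM called neither. With the GC content offset both were called (E2F2 0.38, adjusted p = 0.0194, E2F1 0.13, adjusted p = 0.0347). E2F3, an activator outside the 53 genes, rose (0.13, SE 0.0469, adjusted p = 0.0347). Its call was lost with the GC content offset and with the effective length offset.

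**Figure D3:**
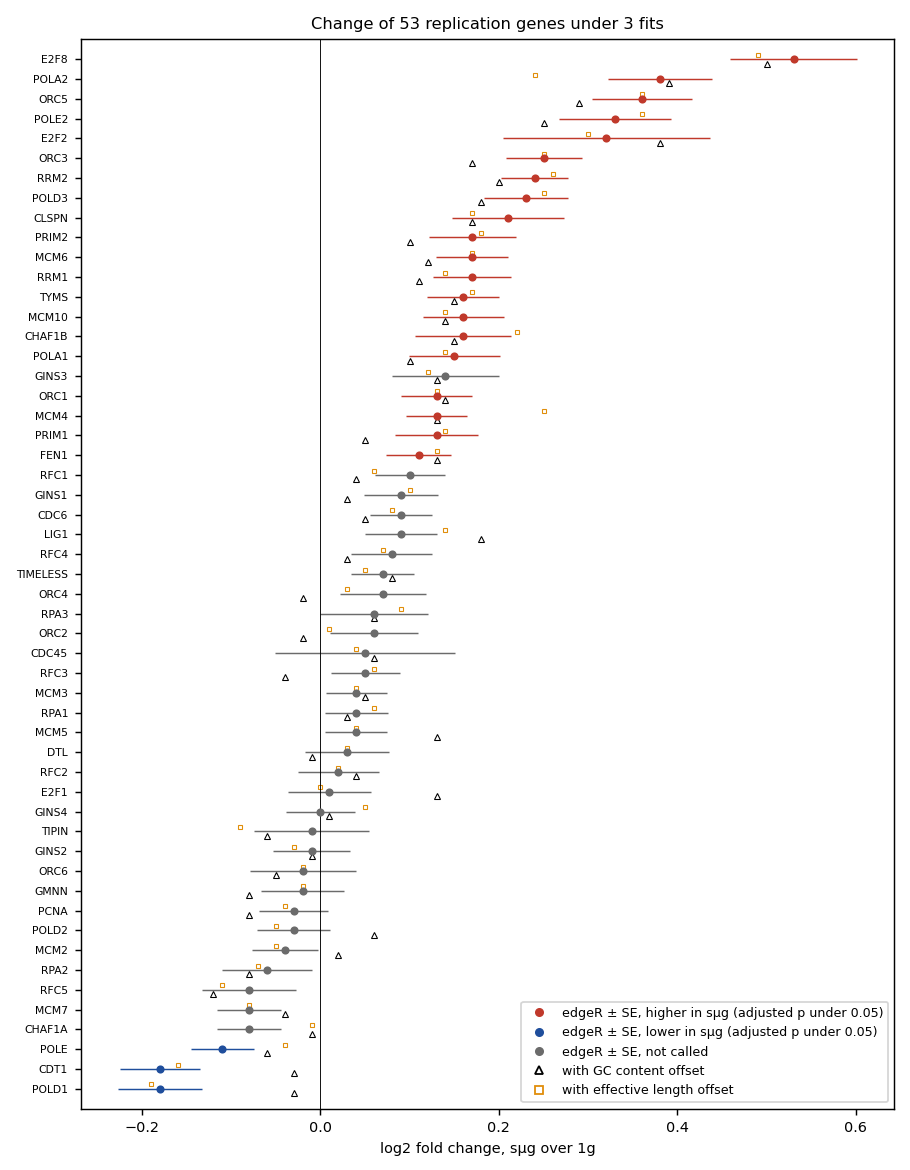
Log2 fold change of sµg over 1g for the 53 genes, ordered by size, from edgeR (filled points with bars of 1 SE, red higher, blue lower, grey not called), with a GC content offset (triangles) and with an effective length offset (squares). With the GC content offset POLD1 and CDT1 move to -0.03, and POLA2 drops from 0.38 to 0.24 with the length offset.

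The genes that rose and those that fell differed in base composition. In the 20 genes that rose, the GC content of the transcripts, weighted by abundance, was 39.3 to 56.8% with a median of 44.1%. In the 3 that fell it was 56.1 to 64.8%. Over all genes tested, the median was 44.3% in those that rose and 54.9% in those that fell. Over the 53 genes the Spearman correlation of the log2 fold change with GC content was -0.432, and over all 16763 genes, of which 99.9% had a GC value, it was -0.27. Both are across genes that share the same 6 libraries. With a GC content offset for each library, an alternative added after the data were seen, 20 of the 53 genes rose and none fell, beside 2575 and 2881 of all genes tested. Of these 20, 17 were shared with the test without the offset, POLA1, PRIM1 and PRIM2 were lost, and E2F1, LIG1 and MCM5 were gained. The log2 fold change of CDT1 went from -0.18 to -0.03, that of POLD1 from -0.18 to -0.03 and that of POLE from -0.11 to -0.06. All 3 falls thus ended as calls with this offset.

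**Figure D4:**
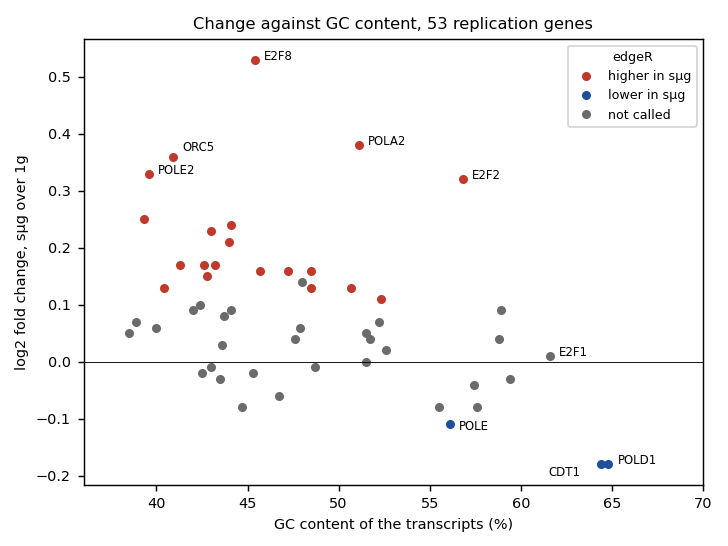
Log2 fold change of sµg over 1g against the GC content of the transcripts in percent, 1 point per gene for the 53 genes (red higher, blue lower, grey not called by edgeR). The 3 blue points lie at 56.1 to 64.8% GC and most red points lie below 50%, with E2F2 at 56.8% as the red point of the highest GC content.

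How many of the 53 genes were called also depended on single libraries. Without 1g replicate 1, the deepest library, 11 rose and 1 fell, beside 1879 and 2464 of all genes, and CHAF1B, CLSPN, E2F2, FEN1, MCM10, ORC1, POLA1, PRIM1, PRIM2, POLD1 and POLE were no longer called. Leaving out 1g replicate 2 gave 14 rises and 2 falls, beside 2039 and 2594 of all genes. Each of 1g replicate 3, sµg replicate 1 and sµg replicate 2 gave 16 rises and 2 falls, beside 1959 to 2236 rises and 2563 to 2728 falls of all genes. Without sµg replicate 3 there were 24 rises and 6 falls, beside 2967 and 3224 of all genes, the rises of the full set among them, with CDC6, GINS3, RFC1 and TIMELESS added as rises and MCM7, RFC5 and RPA2 as falls. This library was the lowest of the 3 sµg libraries for 11 of the 20 genes that rose. With the effective length offset 10 rose and none fell, beside 1242 and 1864 of all genes, and CLSPN, E2F2, FEN1, MCM10, ORC1, POLA1, POLA2, PRIM1, PRIM2 and RRM1 were the rises that were lost. DESeq2 called 15 rises and 2 falls, beside 1750 and 2123 of all genes, without CHAF1B, E2F2, POLA1, PRIM1, PRIM2 and POLE. Under every alternative that was run, 8 genes were called, all as rises: E2F8, MCM4, ORC3, ORC5, POLD3, POLE2, RRM2 and TYMS. No gene that was called changed its direction under any of them.

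At the level of transcripts the tables list 472 for the 53 genes, and 227 could be tested. The test called 1 of them higher in sµg and none lower, where over all 53807 transcripts tested it called 0.476% higher and 1.29% lower. At an unadjusted p under 0.05 there were 22 higher and 9 lower, and DESeq2 called 8 higher and 3 lower. The transcript that rose was E2F8-202, a protein-coding form that made up 73.1, 47.4 and 62.3% of the E2F8 TPM in 1g and 68.2, 79.6 and 68.7% in sµg. Its level was 4.1, 3.48 and 3.77 TPM in 1g and 6.2, 7.06 and 6.34 TPM in sµg, a log2 fold change of 0.74 (SE 0.107, adjusted p = 0.0359). The call was lost whichever library was left out. E2F8-201, the other tested form, had a change of -0.01 (SE 0.263, adjusted p = 0.996), and its share was 23.1, 28.6 and 19.4% in 1g and 18.5, 16.9 and 16.2% in sµg. In 40 of the 53 genes a single transcript held more than 50% of the gene's TPM in 1g.

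The 53 genes were set beside 100 other genes of the pathway, of which 33 rose and 10 fell, beside 15.5% and 18.2% of all genes tested, with a median log2 fold change of 0.08 beside 0.01. The counts of each list below are to be read against these shares of all genes. Each list was chosen with earlier results of these data known. Origin firing is the step at which the loaded ring is activated, by the CDC7 kinase with its partner DBF4 and by CDK2 with its cyclins. A list of 18 firing and loading factors, which also holds relatives and partners of MCM proteins such as MCM8, MCM9 and MCMBP, had 9 genes that rose and 3 that fell, or 50% and 16.7%. DESeq2 called 7 of the 18 higher and 1 lower, beside 1750 and 2123 of all genes. DBF4 (0.3, SE 0.0394, adjusted p = 1.11e-05) and CDC7 (0.31, SE 0.0481, adjusted p = 5.6e-05) rose together, while WDHD1, which ties polymerase alpha to the helicase, fell (-0.33, SE 0.0401, adjusted p = 4.08e-06). The CPM of DBF4 was 72.5, 73.7 and 75.2 in 1g and 90.3, 91.5 and 90.3 in sµg, and that of WDHD1 was 125, 125 and 124 in 1g and 103, 100 and 94.5 in sµg. In both genes the groups were far apart for their spread.

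Of 17 accessory fork proteins 5 rose, or 29.4%, and none fell. With edgeR 1 of them was lower at an unadjusted p under 0.05, and DESeq2 called 5 higher and none lower. DNA2, a nuclease and helicase that shortens long flaps, rose from 64.0, 63.2 and 64.0 CPM in 1g to 84.1, 85.9 and 84.0 CPM in sµg, a log2 fold change of 0.41 (SE 0.04, adjusted p = 2.83e-07). PCLAF, a PCNA partner (0.35, SE 0.0496, adjusted p = 2.51e-05), and TOP2A, which removes the twists between daughter strands (0.18, SE 0.0365, adjusted p = 0.000822), rose as well. The clamp partner PCLAF was thus called where PCNA itself was not, and the difference between them was not tested. The TOP2A call was lost with the GC content offset (adjusted p = 0.0543) and with the effective length offset (adjusted p = 0.0612).

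In the wider nucleotide supply 5 of 18 genes rose and 3 fell, or 27.8% and 16.7%. SAMHD1, which breaks down deoxyribonucleotides, fell from 84.9, 85.9 and 87.2 CPM in 1g to 64.5, 68.7 and 59.8 CPM in sµg, a log2 fold change of -0.42 (SE 0.0478, adjusted p = 1.98e-06). The kinases CMPK1 (0.3, SE 0.0526, adjusted p = 0.00024) and NME1 (0.2, SE 0.0443, adjusted p = 0.00204), which add phosphates to nucleotides, rose. The other genes that fell were the supply enzymes TK1 (-0.15, SE 0.0437, adjusted p = 0.0132) and IMPDH2 (-0.13, SE 0.0349, adjusted p = 0.00648). TK1 lost its call with the GC content offset (-0.04, adjusted p = 0.497) and with the effective length offset (adjusted p = 0.0603). IMPDH2 kept its call with both (adjusted p = 0.0131 and 0.0165). Among 14 checkpoint and CRL4 ligase genes 2 rose and 1 fell, and the 14.3% that rose lay near the 15.5% of all genes. The 2 were ATR (0.24, SE 0.0569, adjusted p = 0.00265), the kinase that senses stalled forks, and its activator ETAA1 (0.19, SE 0.0599, adjusted p = 0.0206). DESeq2 called 1 of the 14 genes higher and 1 lower. KMT5A, a histone methyltransferase that the CRL4 ligase removes in S phase as it removes CDT1, fell (-0.38, SE 0.0812, adjusted p = 0.00127). ATR, ETAA1 and KMT5A all lost their call with the effective length offset (adjusted p = 0.0633, 0.134 and 0.293). ETAA1 also lost it with the GC content offset (adjusted p = 0.387).

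Of 13 E2F and RB family genes 7 rose and 1 fell, or 53.8% and 7.69%. DESeq2 called 4 of the 13 higher and 1 lower. E2F7, the partner of E2F8 in repression, rose from 35.5, 37.8 and 36.4 CPM in 1g to 49.9, 49.5 and 48.3 CPM in sµg, a log2 fold change of 0.43 (SE 0.0484, adjusted p = 1.48e-06). TFDP1, which pairs with E2F factors to bind DNA (0.34, SE 0.0379, adjusted p = 1.28e-06), and LIN9, a subunit of the DREAM and MuvB complexes (0.37, SE 0.0725, adjusted p = 0.000611), also rose. Both atypical repressors, E2F7 and E2F8, were therefore higher in sµg with groups that did not overlap. Of 10 genes of replication-coupled chromatin 4 rose and 1 fell, or 40.0% and 10%. The histone chaperone ASF1A rose (0.36, SE 0.0479, adjusted p = 1.22e-05) and its paralog ASF1B fell (-0.34, SE 0.0498, adjusted p = 3.45e-05), while MMS22L, a partner of TONSL at broken forks, rose (0.24, SE 0.0479, adjusted p = 0.000739). Of 10 translesion synthesis genes 1 rose and 1 fell, or 10% each, below the shares of all genes. DESeq2 called 0 of these 10 higher and 1 lower. MAD2L2, a subunit of polymerase zeta, fell (-0.38, SE 0.0372, adjusted p = 2.95e-07). REV1, which recruits that polymerase, rose (0.18, SE 0.0584, adjusted p = 0.0242). The REV1 call was lost with the GC content offset (adjusted p = 0.135) and with the effective length offset (adjusted p = 0.471). RAD18 was the nearest of the others (0.16, adjusted p = 0.0547).

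Genes of mitosis, which act after replication is complete, were read beside those of S phase. Of 20 such genes 12, or 60.0%, rose and none fell with edgeR, beside 15.5% and 18.2% of all genes, with a median log2 fold change of 0.15, and DESeq2 gave the same counts. At an unadjusted p under 0.05 there were 14 higher and 1 lower. The mitosis list was chosen with earlier results of these data known, so its shares are a description. CENPE, a kinetochore motor, had 46.3, 48.4 and 48.6 CPM in 1g and 80.8, 79.1 and 76.6 CPM in sµg, a change of 0.72 (SE 0.0441, adjusted p = 4.65e-10). KIF23 (0.34, SE 0.0408, adjusted p = 3.57e-06), a motor of cell division, and ESPL1 (0.31, SE 0.0432, adjusted p = 1.96e-05), the protease that parts sister chromatids, rose as well. MKI67, the proliferation marker, had 204, 219 and 211 CPM in 1g and 258, 257 and 215 CPM in sµg (0.2, SE 0.0664, adjusted p = 0.0416), and its groups overlapped through sµg replicate 3. Of the reference genes, TBP had a change of 0.01 (adjusted p = 0.961), GAPDH rose by 0.19 on the log2 scale (SE 0.037, adjusted p = 0.000601) and ACTB had a change of -0.17 (SE 0.0386, adjusted p = 0.00212), a fall.

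**Figure D5:**
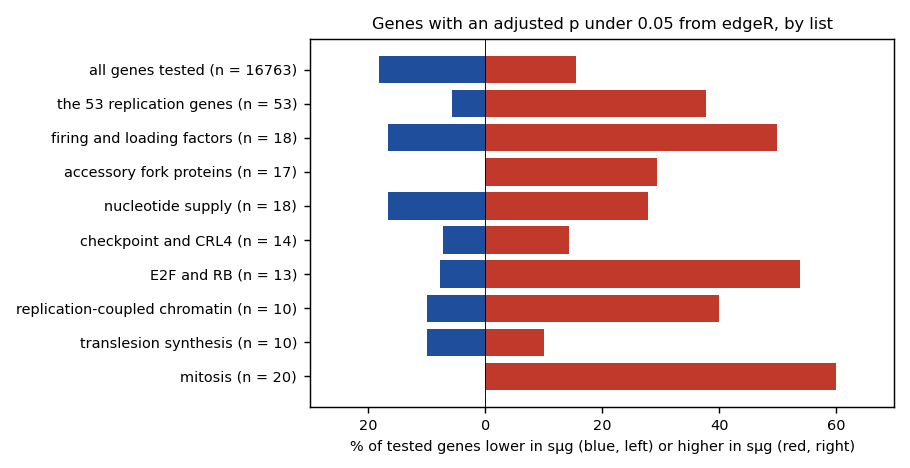
Percent of the tested genes of each list that edgeR called higher in sµg (red, to the right of 0) or lower (blue, to the left), with the number of genes tested. The lists were chosen with earlier results of these data known. All genes tested stand at 15.5% higher and 18.2% lower, the 53 replication genes at 37.7% and 5.66%, and the mitosis genes at 60.0% higher with none lower.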

How the data were processed

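Poly(A) RNA of 3 1g and 3 sµg samples had been sequenced by the authors from stranded libraries. Per the labels they used STAR 2.7.7a, RSEM 1.3.3 and GRCh38.p13, and the paper's methods name 2 RSEM versions of the counts without saying which was deposited. The authors deposited tables of genes and transcripts with RSEM's expected count (not normalized between libraries), TPM (scaled to a constant sum per library), effective length and, for transcripts, the percent of the gene's TPM. A strand setting for RSEM was not given in the sources used.

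Expected counts were rounded and tested in R 4.3.3 with edgeR 4.0.16 (quasi-likelihood, robust, condition as the single factor) after filterByExpr (minimum count 10, minimum total 15) and TMM scaling (factors 0.988 to 1.01), at a Benjamini-Hochberg adjusted p under 0.05. The biological coefficient of variation was 3.96%. Alternatives were DESeq2 1.42.0, RLE scaling, other filters, limma 3.58.1 on log2(TPM + 1) and log2(TPM + 0.1), a length offset, a replicate block, leaving out each library, an adjusted p under 0.01 and, added after seeing the data, a GC content offset (a lowess curve per library). The tests were run on simulated counts first. Those counts held no difference in effective length and no GC trend between libraries, so the corrections made by the offsets were not tried there. Symbols were matched for 42022 genes, and positions are those of GENCODE 44. The 53 genes and the other lists were chosen with earlier results of these data known. All 53 genes are named; values in every library are given for those that passed the test and for both ends of each role group. From each related list and the mitosis list the 3 genes with the smallest adjusted p are named, with MKI67, GAPDH and TBP added. E2F3, TK1, IMPDH2, ACTB and the marker genes named in the report stand outside this rule. They were chosen after their values were seen. Depth limits the precision least in MCM7 and most in E2F2, the genes with the highest and the lowest counts.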

Additional observations from a re-analysis of the deposited data

How the results depend on the processing

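Without any alternative, 20 of the 53 genes rose and 3 fell, of all genes 2591 and 3057, of the related genes 33 and 10, and of the mitosis genes 12 and none. The effective length offset gave 10 and 0 of the 53 genes, 1242 and 1864 of all genes and 17 and 6 of the related genes. Limma on log2(TPM + 1) gave 10 and 0, 1495 and 1459, and 20 and 4, and limma on log2(TPM + 0.1) gave 11 and 0, 1480 and 1444, and 20 and 4. At an adjusted p under 0.01, 11 of the 53 genes and 1587 of all genes rose. The GC content offset called 0 of the 53 genes and 1 mitosis gene lower. Leaving out single libraries gave 11 to 24 rises and 1 to 6 falls among the 53 genes. The transcript calls moved from 1 higher and 0 lower to 8 and 3 with DESeq2, to 0 higher with no filter, with limma under either pseudocount, with the replicate block and at an adjusted p under 0.01, and to 0 to 1 higher without single libraries, where the 1 was MCM6-201, without sµg replicate 3. The cause of these shifts was not tested.

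With the replicate block 20 of the 53 genes rose and 3 fell, and of all genes 2619 and 3057. The deviations of same-numbered samples from their group means correlated at 0.00406, 0.0414 and 0.0126 for replicates 1, 2 and 3, so no pairing was taken from the numbers. The study's methods call the controls matched, without saying which sample was matched to which.

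Of 345 comparisons of the 23 called genes over 15 alternatives, 260 kept the call and 85 lost it, and 0 turned in direction. Genes that had not passed the test changed sign as follows. With the GC content offset the log2 fold change was -0.020 in ORC2, -0.024 in ORC4, 0.023 in MCM2, 0.061 in POLD2, -0.043 in RFC3, -0.015 in DTL and 0.008 in GINS4. With limma (1 or 0.1 added) it was 0.012 in ORC6 and GMNN, 0.010 in GINS2, 0.086 and 0.087 in GINS4, and 0.026 and 0.027 in CHAF1A. GINS4 also gave 0.004 with DESeq2, 0.000 with RLE scaling and 0.052 with the length offset. Without single libraries the range was -0.073 to 0.049 in ORC6, -0.050 to 0.028 in GMNN, -0.091 to 0.141 in CDC45, -0.035 to 0.019 in GINS2, -0.005 to 0.006 in GINS4, -0.057 to 0.010 in PCNA, -0.019 to 0.051 in RFC2, -0.051 to 0.022 in TIPIN, -0.007 to 0.087 in DTL and -0.006 to 0.029 in E2F1.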
